A study of Mus musculus with 2 samples.

Results

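The platelet-derived growth factor (PDGF) system and its pericyte companions were described in adult mouse lung through 9 genes. They were the 4 ligand genes Pdgfa, Pdgfb, Pdgfc and Pdgfd, the 2 receptor genes Pdgfra and Pdgfrb, and 3 genes of pericytes, Cspg4, Rgs5 and Higd1b. The genes were taken by symbol, and all 9 were found among the 43346 genes of the deposited tables, with 23 of 103639 quantified transcripts. The material was whole lung of C57BL/6J mice aged 8 weeks, with both sexes pooled, and no treatment was given in the labels. Polyadenylated RNA longer than 200 nt was read as stranded pairs of 76 nt reads after spike-in RNA had been added. The 2 libraries form 1 group and are called replicate 1 and replicate 2. Both carry the same donor record under separate biosample records, and no source used here gives the number of animals behind each, so the spread between them may be technical in part. With 1 group and 2 libraries there was no test, and every difference below compares these 2 libraries and not 2 conditions.

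PDGF ligands are secreted dimers that bind receptor tyrosine kinases on neighbouring cells, and receptor dimers then start signalling through SH2-domain proteins, phosphoinositide 3-kinase and phospholipase C gamma. PDGF-B released by endothelium recruits pericytes, which carry PDGF receptor beta and wrap the capillaries. PDGF-A made by lung epithelium acts on fibroblasts that carry PDGF receptor alpha, which are needed for the formation of alveoli. PDGF-C and PDGF-D are secreted with an inhibitory CUB domain that proteases must remove before the growth factor can bind.

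Summed estimated fragment counts on genes were 48234745 in replicate 1 and 44182836 in replicate 2, and spike-ins took 2.25% and 1.52% of the summed level in TPM, a unit corrected for transcript length and library total. Genes of tissues other than lung differed widely between the libraries. The 5 squamous epithelium markers summed to 4043 TPM in replicate 1 and to 0.59 TPM in replicate 2, where Krtdap and Krt6a were at 0. The 8 skeletal muscle markers summed to 2766 TPM in replicate 1 and to 59.8 TPM in replicate 2, where Tnnc2, Myh8 and Myh4 were at 0. Replicate 1 was the higher library for all 13, each by 2-fold or more. Among markers of the lung itself, the alveolar epithelial gene Sftpc, which encodes surfactant protein C, stood at 22806 TPM in replicate 1 and 22331 TPM in replicate 2. The endothelial cadherin gene Cdh5 stood at 501 TPM in replicate 1 and 479 TPM in replicate 2. Some other genes of the same lists were further apart, in either direction. Sftpb stood at 4944 TPM in replicate 1 and 6799 TPM in replicate 2, Pdpn at 39.7 and 19.4 TPM, and Tie1 at 217 and 286 TPM.

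The ligand genes differ in which transcripts they make, and the stretches where their coding sequences part are shown here, from GENCODE M21 transcripts on GRCm38 (mm10). Pdgfa, on the minus strand of chromosome 5, has a cassette exon of 69 bases at chr5:138978622-138978690 that ends the coding sequence of the long PDGF-A form. The lower-case bases belong to the exon shared by both forms, and the capitals mark the coding bases that follow it up to the stop codon, which is TAA in Pdgfa-201 and TGA in Pdgfa-202.
Pdgfa-201: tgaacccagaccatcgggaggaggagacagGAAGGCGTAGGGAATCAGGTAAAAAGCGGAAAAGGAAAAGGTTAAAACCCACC
Pdgfa-202: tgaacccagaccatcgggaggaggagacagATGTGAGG
The long form has 53 coding bases after the shared exon, of which 40 are A or G, and 211 codons in all. In the short form 8 coding bases follow, and it has 196 codons. The long carboxy terminus is the basic stretch known to hold PDGF-A on heparan sulfate near the cell that made it.

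Pdgfd, on the plus strand of chromosome 9, has 2 coding transcripts that part at the start of their second exon. The capitals mark the 18 bases at chr9:6288472-6288489 that Pdgfd-202 has and Pdgfd-201 lacks, and the lower-case bases on either side are shared.
Pdgfd-202: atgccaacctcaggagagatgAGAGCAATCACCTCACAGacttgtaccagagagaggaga
Pdgfd-201: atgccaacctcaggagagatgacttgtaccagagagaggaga
These bases add 6 codons without a change of reading frame, so Pdgfd-202 has 370 codons and Pdgfd-201 has 364.

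Pdgfb was the most abundant of the 9 genes, and Pdgfb and Pdgfa together gave nearly all of the ligand RNA. Pdgfb, at chr15:79995874-80014977, stood at 136 TPM in replicate 1 and 125 TPM in replicate 2 (130 ± 7.88 TPM, mean ± SD, n = 2). Pdgfa, at chr5:138976014-138997370, stood at 81.1 TPM in replicate 1 and 97.6 TPM in replicate 2 (89.4 ± 11.6 TPM, SD, n = 2). Both genes lay in the upper part of the 13855 genes that reached 1 TPM in both libraries, with 92.7% of these below Pdgfb and 89.1% below Pdgfa. In whole tissue, fewer cells of a type and less RNA per cell cannot be told apart, so these are levels of the organ and not of a cell type.

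The ligands with a CUB domain were far lower. Pdgfd, at chr9:6168584-6378850, had a level of 6.86 TPM in replicate 1 and 4.89 TPM in replicate 2. Pdgfc, at chr3:81036416-81214040, was at 1.14 TPM in replicate 1 and 0.92 TPM in replicate 2, on 136 and 108 counts. Pdgfc was thus the 1 gene of the 9 that did not reach 1 TPM in both libraries. The other 8 did, beside 32% of all genes in the tables.

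**Figure D1:**
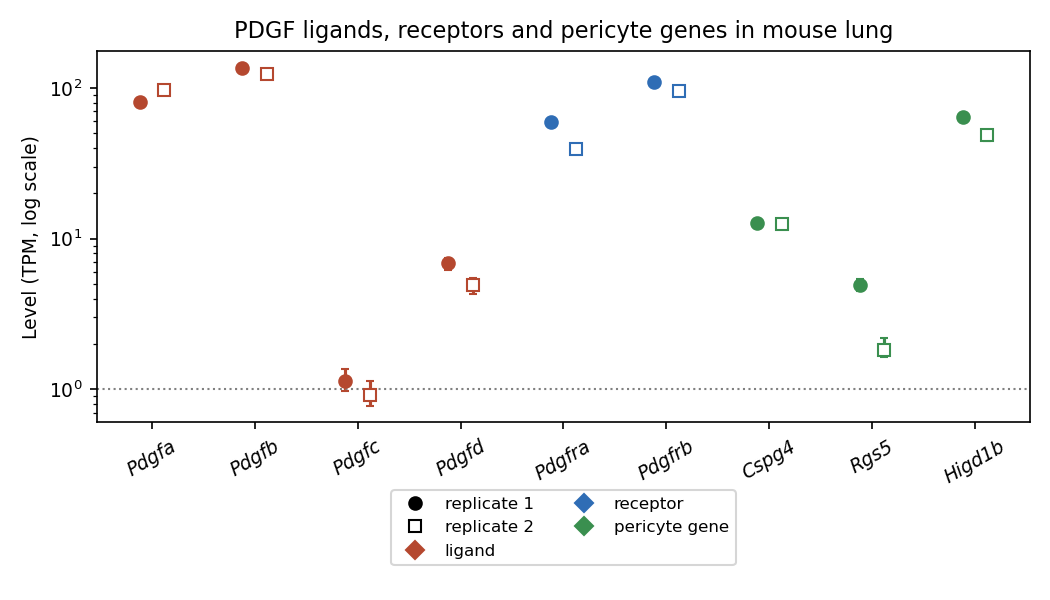
Level of each gene in TPM on a log axis, with replicate 1 as filled circles and replicate 2 as open squares, coloured by role; bars are the authors' deposited intervals of each value, and the dotted line is 1 TPM. Pdgfb, Pdgfrb and Pdgfa have the highest means, and Rgs5 has the widest gap between libraries, with 4.95 TPM in replicate 1 and 1.82 TPM in replicate 2.

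Of the summed TPM of the 4 ligands, Pdgfb made up 60.4% in replicate 1 and 54.7% in replicate 2 (57.5 ± 4.04%, SD, n = 2). Pdgfa made up 36.1% in replicate 1 and 42.8% in replicate 2 (39.4 ± 4.75%, SD, n = 2). Pdgfd held 3.05% in replicate 1 and 2.14% in replicate 2, and Pdgfc held 0.507% and 0.403%. The ranks of the ligands were thus the same in both libraries, and Pdgfb exceeded Pdgfa 1.67-fold in replicate 1 and 1.28-fold in replicate 2. The ligands summed to 225 TPM in replicate 1 and 228 TPM in replicate 2.

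By the deposited shares, transcripts of Pdgfa were split almost evenly between the long and the short coding form. Part of the short form is on Pdgfa-203 and Pdgfa-204, whose first exons overlap an antisense gene, as given below. Pdgfa-201, the 1 transcript with the cassette exon, took 45.6% of the gene's TPM in replicate 1 and 47.0% in replicate 2. The 3 coding transcripts that skip the exon took 50.8% in replicate 1 and 43.6% in replicate 2 (47.2 ± 5.08%, SD, n = 2). Among coding transcripts alone, the long form held 47.3% in replicate 1 and 51.9% in replicate 2, so which form was the larger changed with the library.

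The skipping transcripts differ from each other in where they start. Pdgfa-202 starts 84 bases upstream of Pdgfa-201 and took 23.2% of the gene's TPM in replicate 1 and 15.3% in replicate 2. Pdgfa-204, which starts further upstream, took 20.8% in replicate 1 and 22.2% in replicate 2. Pdgfa-203 starts furthest upstream and took 6.77% in replicate 1 and 6.03% in replicate 2. Replicate 1 was thus higher in the share of Pdgfa-202, while the other coding transcripts differed by less than 2 percentage points. The upstream first exons of Pdgfa-203 and Pdgfa-204 share 459 and 354 bases with the antisense gene 6330403L08Rik, which had 527 counts in replicate 1 and 468 in replicate 2. Pdgfa-206, which has no coding sequence, shares 268 bases with the same gene. It took 2.33% of the TPM of Pdgfa in replicate 1 and 8.51% in replicate 2, on 11.5 and 49.4 counts. No source used here says whether the counting used the strand, so reads in these shared bases cannot be assigned to either gene with certainty. The near-even split of the coding forms carries the same limit.

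**Figure D2:**
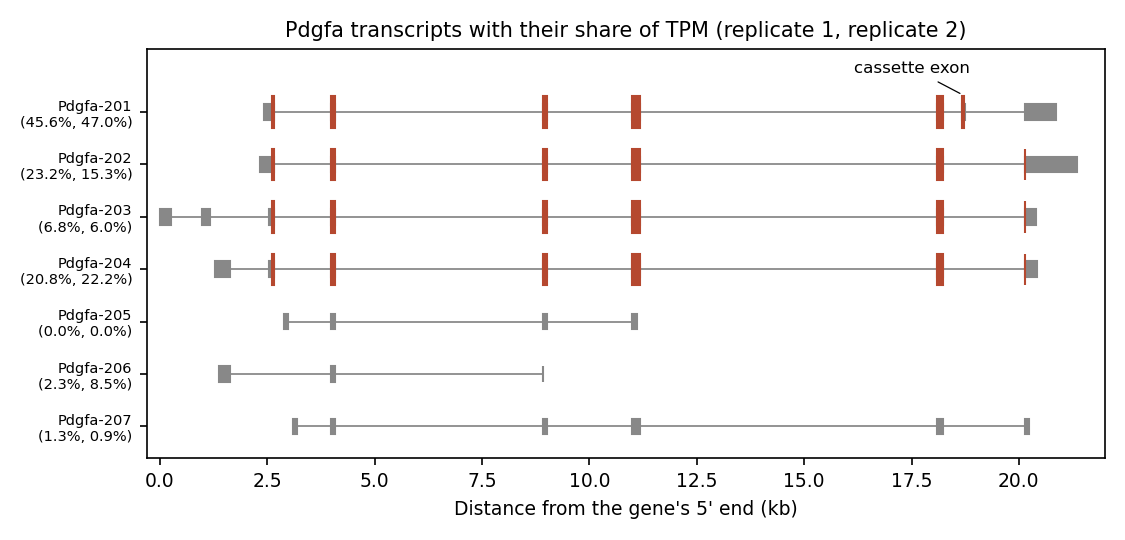
Exons of the 7 quantified Pdgfa transcripts, drawn 5′ to 3′ as distance in kb from the upstream end of the gene, with coding parts tall and red and other exon parts grey; the share of the gene's TPM in replicate 1 and then replicate 2 stands under each name. Pdgfa-201 alone carries the cassette exon, and it has the largest share in both libraries.

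The longer Pdgfd-202 coding form was the main one. It took 78.1% of the gene's TPM in replicate 1 and 72.9% in replicate 2, against 21.9% and 27.1% for Pdgfd-201. Pdgfd-201 is 3052 bases long and Pdgfd-202 is 1795 bases long, so the share of counts was nearer to even, and Pdgfd-202 held 63.3% of them on average. Pdgfb had 1 quantified transcript, with 241 codons, and all Pdgfc counts were placed on Pdgfc-201, with 345 codons.

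**Figure D3:**
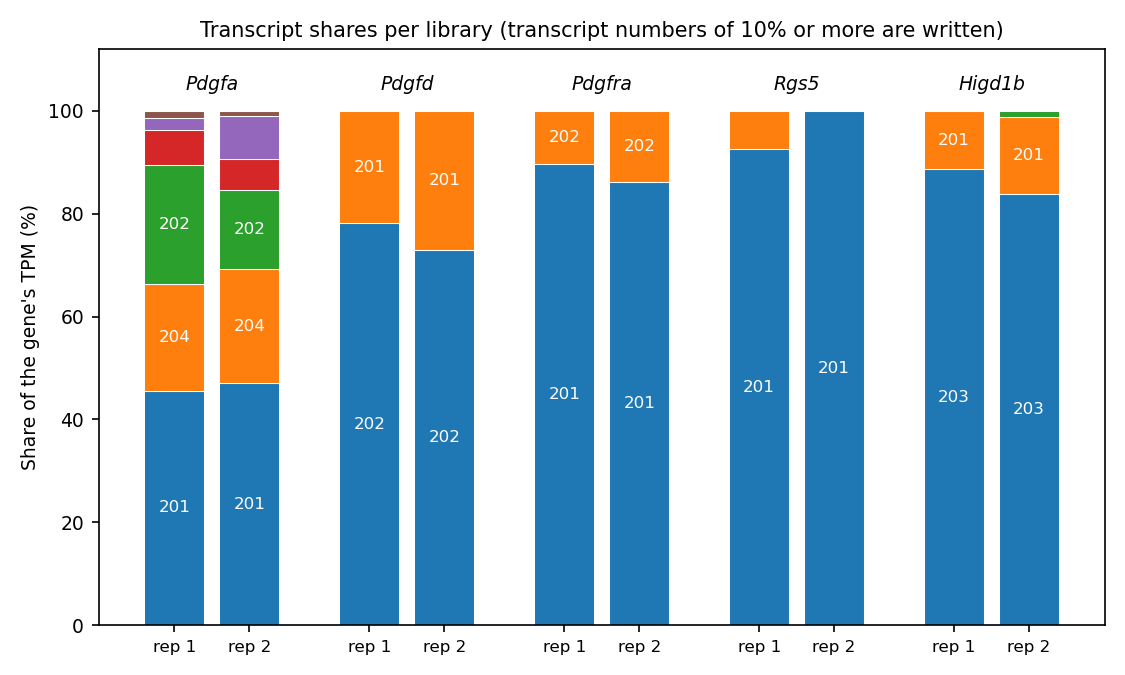
Share of each gene's TPM on its transcripts in percent, as stacked bars with replicate 1 left of replicate 2 for each of 5 genes; numbers are the transcript suffixes of segments of 10% or more. The largest segment was the same transcript in both libraries for each gene drawn.

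Among the receptors, Pdgfrb was more abundant than Pdgfra in both libraries. Pdgfrb, the receptor of pericytes and other mural cells, lies at chr18:61045150-61085061 and stood at 109 TPM in replicate 1 and 96.1 TPM in replicate 2 (103 ± 9.28 TPM, SD, n = 2). Pdgfra, the receptor of fibroblasts, lies at chr5:75152292-75198215 and stood at 59.8 TPM in replicate 1 and 39.7 TPM in replicate 2 (49.7 ± 14.2 TPM, SD, n = 2). The level of Pdgfra was 0.547 of that of Pdgfrb in replicate 1 and 0.413 in replicate 2 (0.480 ± 0.0951, SD, n = 2). The receptors did not overlap in level, and Pdgfra had the wider spread, with a coefficient of variation of 28.6%. Receptors summed to 169 TPM in replicate 1 and 136 TPM in replicate 2, so the summed ligand level was 1.33 times the summed receptor level in replicate 1 and 1.68 times in replicate 2.

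Both quantified Pdgfra transcripts encode the same 1089 codons and differ in their first exons. Pdgfra-201 took 89.8% of the gene's TPM in replicate 1 and 86.2% in replicate 2, and Pdgfra-202 took the remaining 10.2% and 13.8%. Exons of Pdgfra share 456 bases with the antisense gene Gm42802, whose reads were not quantified in the tables. Pdgfrb-201, with 1099 codons, took 99.5% of its gene's TPM in replicate 1 and 99.7% in replicate 2. Of the members with at least 2 transcripts and 5 TPM or more in both libraries, all 4 (Pdgfa, Pdgfra, Pdgfrb and Higd1b) had the same main transcript in both, beside 85.8% of all such genes.

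The 3 pericyte genes stood at very different levels. Higd1b, a gene of the hypoxia-inducible domain family that marks lung pericytes, lies at chr11:102835849-102838040 and stood at 64.4 TPM in replicate 1 and 48.9 TPM in replicate 2 (56.6 ± 10.9 TPM, SD, n = 2). Cspg4, which encodes the NG2 proteoglycan of the pericyte surface, lies at chr9:56865033-56899870 and stood at 12.8 TPM in replicate 1 and 12.5 TPM in replicate 2. Rgs5, a regulator that speeds the switching off of G proteins, lies at chr1:169655501-169695813 and stood at 4.95 TPM in replicate 1 and 1.82 TPM in replicate 2. On TPM the libraries were closest for Cspg4, with a coefficient of variation of 1.29%, and furthest apart for Rgs5, at 65.4%. In the scaled counts described below, the log2 ratio of replicate 1 over replicate 2 was smaller in size for Higd1b (0.14) than for Cspg4 (-0.20). Rgs5, a widely used pericyte marker, had 15.9% of the detected genes below it, against 82.0% below Higd1b. The level of Higd1b was 13.0 times that of Rgs5 in replicate 1 and 26.9 times in replicate 2. This gap rests largely on the correction for length. Higd1b had 800 counts in replicate 1 and 605 in replicate 2, and Rgs5 had 649 and 250. The effective lengths behind TPM were 344 and 351 bases for Higd1b, and 3634 and 3887 bases for Rgs5. Cspg4 was at 0.117 of the level of Pdgfrb in replicate 1 and 0.130 in replicate 2.

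All 3 Higd1b transcripts encode the same 98 codons, and Higd1b-203 took 88.7% of the gene's TPM in replicate 1 and 83.9% in replicate 2. Higd1b-201 took 11.3% in replicate 1 and 14.97% in replicate 2. The main Rgs5 transcript, which encodes 181 codons, held 92.5% of the TPM of Rgs5 in replicate 1 and 100% in replicate 2. The other Rgs5 transcript rested on 6.88 estimated counts in replicate 1 and 0 in replicate 2, so its share rests on a handful of reads. Cspg4 had 1 quantified transcript, with 2327 codons.

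Put in order by mean level, the genes ran Pdgfb, Pdgfrb, Pdgfa, Higd1b, Pdgfra, Cspg4, Pdgfd, Rgs5 and Pdgfc. The ranges of neighbours over the 2 libraries did not overlap except for 3 pairs, Pdgfrb with Pdgfa, Higd1b with Pdgfra, and Pdgfd with Rgs5. Within each library, Higd1b was still above Pdgfra and Pdgfd above Rgs5. Pdgfrb was above Pdgfa in replicate 1, at 109 and 81.1 TPM, and just below it in replicate 2, at 96.1 and 97.6 TPM. Among the list genes other than the 9 members, Spry1, Ndufa4l2 and Pik3r2 lay nearest to Pdgfrb in level over the 2 libraries, at distances of 0.0304, 0.0800 and 0.238 in log2(TPM + 1). Nearest to Pdgfra were Pf4, Anpep and Gucy1b1, at 0.233, 0.299 and 0.313. This likeness is one of level in 2 libraries only.

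To compare the libraries, counts were scaled with the trimmed mean of M-values (TMM) and given as the log2 ratio of replicate 1 over replicate 2. Counting intervals at 95% stand in brackets and cover counting error only. Rgs5 was counted 649 times in replicate 1 and 250 times in replicate 2, which gave a log2 ratio of 1.11 [0.90, 1.33], or 2.17-fold higher in replicate 1. It was the 1 gene of the 9 that was 2-fold or more higher in replicate 1, beside 4.45% of the 14708 genes whose counts averaged 50 or more, and its interval reached below 2-fold. None of the 9 was 2-fold or more higher in replicate 2, beside 2.21% of the same 14708 genes. Below, the 2-fold shares and median log2 ratios given for all genes are those of these 14708 genes.

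For Pdgfra the counts were 13700 in replicate 1 and 8878 in replicate 2, with a log2 ratio of 0.36 [0.33, 0.40]. Pdgfa had 3954 and 4261 counts, a log2 ratio of -0.37 [-0.43, -0.31], which put it lower in replicate 1. The 2 genes, a ligand and its main receptor, thus lay on opposite sides of 0. They did so under the other scalings too, with 0.50 for Pdgfra and -0.23 for Pdgfa by library size, and 0.59 and -0.27 by TPM (pseudocount 0.1). Pdgfb (-0.10 [-0.14, -0.07]), Pdgfrb (-0.04 [-0.07, -0.01]) and Cspg4 (-0.20 [-0.27, -0.13]) were slightly lower in replicate 1 under this scaling, but with deposited TPM all 3 turned positive, and with library size alone Pdgfb and Pdgfrb did. Under those scalings the median of all genes was 0.21 for TPM and 0.14 for library size, beside 0.002 under TMM. Relative to the TPM median, the ratios on TPM were -0.08 for Pdgfb, -0.02 for Pdgfrb and -0.18 for Cspg4. For Pdgfc (0.07 [-0.30, 0.45]) and Higd1b (0.14 [-0.01, 0.30]) the counting interval included 0, and for Pdgfd (0.21 [0.01, 0.42]) it nearly did. On the TPM scale, the authors' deposited intervals of the 2 libraries did not overlap for 7 of the 9 genes, all but Pdgfc and Cspg4, beside 59.6% of the genes averaging 50 counts or more.

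**Figure D4:**
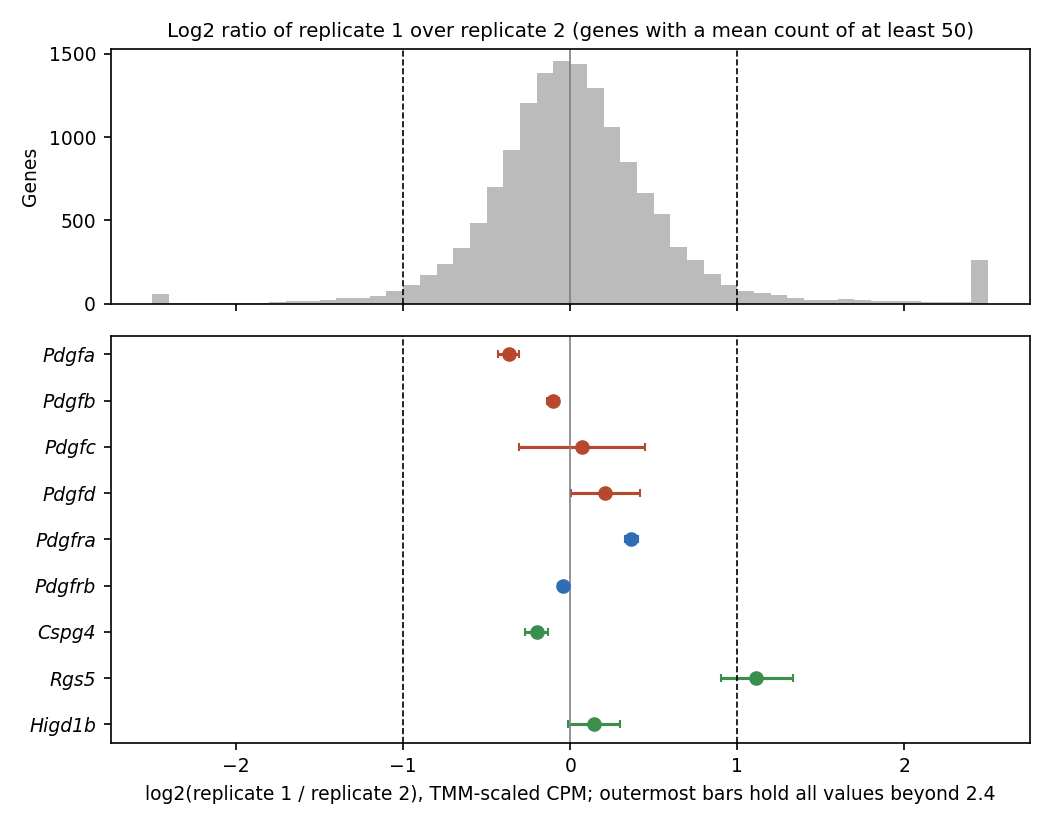
Top, histogram of the log2 ratio of replicate 1 over replicate 2 (TMM-scaled counts) over the 14708 genes averaging 50 counts or more; bottom, the same ratio for each of the 9 genes with its counting interval at 95%. Dashed lines mark 2-fold, and the point of Rgs5, at 1.11, is the one member beyond them.

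Rgs4, which encodes a related regulator of G proteins and is also used as a mural marker, lies 45.7 kb from Rgs5 at chr1:169741477-169747642 with no annotated gene between them. Its counts were 517 in replicate 1 and 193 in replicate 2, with a log2 ratio of 1.15. The neighbours were thus both higher in replicate 1 by a similar ratio. Beside this, the squamous and skeletal muscle markers given above were higher in replicate 1, all 13 of 13, as were the 4 of 6 glial markers that averaged 50 counts or more, beside 7390 of 14708 genes with a positive ratio. Olig1, below that minimum, went the other way with 3 counts in replicate 1 and 16 in replicate 2. The glial list summed to 33.2 TPM in replicate 1 and 20.6 TPM in replicate 2, with Olig2 at 0 in both. Smooth muscle markers summed to 1257 TPM in replicate 1 and 868 TPM in replicate 2, with 6 of 8 higher in replicate 1. Their part in the ratios of Rgs5, Rgs4 and Pdgfra was not tested.

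Mural cell markers as a list did not lie to one side. All 19 such genes reached 1 TPM in both libraries, beside 32% of all genes. Of the 19, 9 had a positive and 10 a negative ratio, and the median log2 ratio was -0.04, beside 0.002 over all genes. Highest in level was Mcam, a cell adhesion molecule, at 162 TPM in replicate 1 and 143 TPM in replicate 2. Ndufa4l2, a mitochondrial protein gene of pericytes, stood at 103 TPM in replicate 1 and 96.4 TPM in replicate 2, and Notch3, the Notch receptor of mural cells, at 91.9 and 82.3 TPM. Past 2-fold were Rgs4 and, in the other direction, Fam162b, with 134 counts in replicate 1 and 278 in replicate 2 and a log2 ratio of -1.30. With 1 of 19 genes past 2-fold in each direction, the list lay near the shares over all genes, 4.45% higher in replicate 1 and 2.21% higher in replicate 2.

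Ligand processing and retention genes were all measured, and 12 of 13 reached 1 TPM in both libraries, beside 32% of all genes. Sparc, a matrix protein that binds PDGF-B, stood at 3247 TPM in replicate 1 and 2780 TPM in replicate 2. Lrp1, an endocytic receptor that associates with PDGF receptor beta, stood at 220 TPM in replicate 1 and 200 TPM in replicate 2, and Furin, a protease that cuts the PDGF-A and PDGF-B precursors, at 93.9 and 106 TPM. Plau, the urokinase that can activate PDGF-D, was the 1 gene of this list past 2-fold, with 412 counts in replicate 1 and 156 in replicate 2 (log2 ratio 1.13), beside 4.45% of all genes, and the list's median log2 ratio was 0.07.

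Signalling genes downstream of the receptors were all measured. The 23 signal transduction genes all reached 1 TPM in both libraries, beside 32% of all genes, and none was past 2-fold in scaled counts, beside 4.45% of all genes higher in replicate 1 and 2.21% higher in replicate 2. Their log2 ratios ran between -0.55 and 0.53, and their median log2 ratio was -0.06. Plcg1, the phospholipase C gamma that docks on the receptors, stood at 113 TPM in replicate 1 and 129 TPM in replicate 2, Stat3 at 131 and 107 TPM, and the phosphoinositide 3-kinase subunit Pik3r2 at 99.0 and 110 TPM. On deposited TPM the adaptor gene Crk, named after its values were seen, was further apart, at 44.1 TPM in replicate 1 and 130 TPM in replicate 2. Its counts were close, at 5204 in replicate 1 and 5105 in replicate 2, with a log2 ratio of -0.23 in scaled counts. The 11 attenuation genes all reached 1 TPM in both libraries, beside the same 32% of all genes. None was past 2-fold in scaled counts, beside the same shares of 4.45% and 2.21% over all genes. Their median log2 ratio was -0.07. The phosphatase gene Acp1, also named after its values were seen, was further apart on deposited TPM. It stood at 6.73 TPM in replicate 1 and 3.23 TPM in replicate 2, while its log2 ratio in scaled counts was 0.83. The median log2 ratio of all genes was 0.21 on TPM. Spry1, a feedback inhibitor of receptor tyrosine kinase signalling, stood at 110 TPM in replicate 1 and 98.1 TPM in replicate 2, the phosphatase gene Dusp6 at 67.5 and 72.3 TPM, and the phosphatase gene Ptpn1 at 58.5 and 65.0 TPM.

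Cell types that make or receive PDGF were described by their own markers. Fibroblast markers, which accompany Pdgfra, had a median log2 ratio of -0.08, with 4 of 13 higher in replicate 1, while Pdgfra itself was at 0.36. Aspn was the 1 fibroblast marker past 2-fold, with 268 counts in replicate 1 and 68 in replicate 2, beside 4.45% of all genes higher in replicate 1. Endothelial markers, of the cells that make PDGF-B, had a median of -0.13 with 2 of 8 higher in replicate 1, and Pdgfb was at -0.10. Alveolar epithelial markers, of the cells that make PDGF-A, had a median of -0.19 with 2 of 8 higher in replicate 1, and Pdgfa was at -0.37. Platelets also carry PDGF, and 5 of 6 platelet markers had a positive ratio (median 0.31). Their most abundant gene was Pf4, at 51.2 TPM in replicate 1 and 37.6 TPM in replicate 2. Mesothelial markers were lower in replicate 1 for 5 of 5, with a median of -0.59, and summed to 406 TPM in replicate 1 and 460 TPM in replicate 2. Past 2-fold among them was Wt1, with 223 counts in replicate 1 and 531 in replicate 2, beside 2.21% of all genes higher in replicate 2. Macrophage markers had a median of 0.02. Several of these medians change sign with another scaling, and no relation between a list and a PDGF gene was tested.

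**Figure D5:**
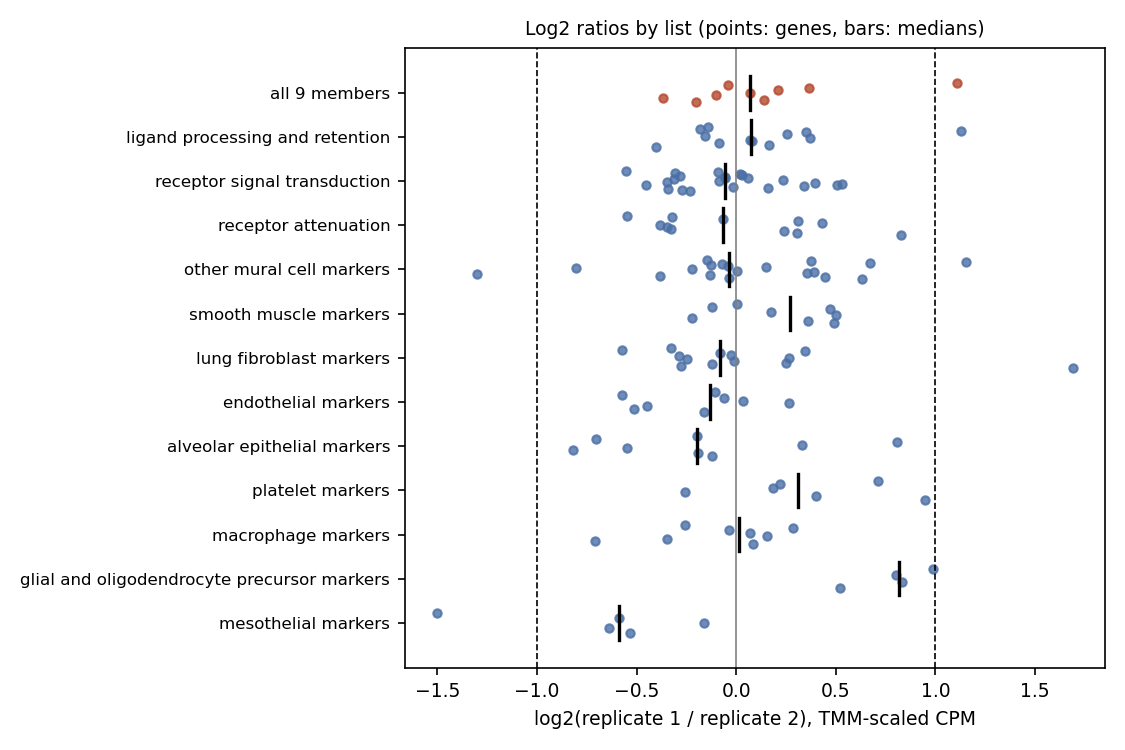
Log2 ratio of replicate 1 over replicate 2 (TMM-scaled counts) for genes averaging 50 counts or more in 12 lists plus the 9 members (top row); each point is a gene, black bars are medians and dashed lines mark 2-fold. The members spread around a median of 0.07, with Rgs5 alone past 2-fold, and the 4 glial points all lie right of 0.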

How the data were processed

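Per the labels, polyadenylated RNA of 2 whole-lung libraries was sequenced as stranded read pairs. The authors' deposited tables give, per gene and transcript, an expected count (estimated fragments, not whole), and TPM and FPKM, which are scaled per length and library total with spike-ins included. They also hold intervals of TPM, whose level is not stated, and each transcript's share of its gene in percent of TPM, all as deposited by the authors. Per the deposited file lists, the build was mm10 with GENCODE M4. No source used here names the aligner or quantifier.

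Gene symbols came from GENCODE M21 and matched 42462 of 43346 genes. Of the 23 transcripts, 18 had the same length in M21, and exon maps follow M21. Expected counts were rounded and scaled by TMM in edgeR 4.0.16 (R 4.3.3), with a prior count of 2. The minimum mean count of 50 was applied after scaling, to choose the genes for 2-fold calls and medians. Exact Clopper-Pearson intervals at 95% cover the split of counts. A gene was called at 2-fold, and detected at 1 TPM in both libraries. Spike-ins (97 rows) and 26248 rows without a gene (0 counts in replicate 1, 2 in replicate 2) stayed out of scaling. The ratio step was tested on simulated data.

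Named in the text are all 9 members, transcripts with 10% or more of their gene's TPM, the 3 genes of highest TPM and those past 2-fold in a list, and the 3 genes nearest in level to each receptor; of the cell type lists fewer are named. Pdgfa-203, Pdgfa-206, the minor Rgs5 transcript, Pdpn, Tie1 and the markers at 0 were named after their values were seen. Members and lists were chosen with earlier results of these data known. Alternatives were DESeq2 1.42.0 size factors, library size, TPM with other pseudocounts, other filters and folds, FPKM, expected count shares and single libraries. The contig and junction lists on mm9 were not used here.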

Additional observations from a re-analysis of the deposited data

How the results depend on the processing

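Of 249 alternative values, 20 changed sign, and all 20 came from scaling by library size or by TPM. With library size alone the log2 ratio of replicate 1 over replicate 2 was 0.0314 for Pdgfb and 0.0926 for Pdgfrb, and list medians were 0.12 for PDGF ligands, 0.0774 for signal transduction, 0.0692 for attenuation, 0.0968 for other mural markers, 0.0548 for fibroblast and 0.0015 for endothelial markers. With TPM (pseudocount 0.1) the ratios were 0.12 for Pdgfb, 0.18 for Pdgfrb and 0.0260 for Cspg4, and with pseudocount 1 they were 0.12, 0.18 and 0.0243. The TPM medians were 0.20 for PDGF ligands, 0.20 for signal transduction, 0.16 for attenuation, 0.23 for other mural markers, 0.0328 for endothelial and 0.0299 for alveolar epithelial markers. The median of all genes was 0.14 with library size and 0.21 with TPM, which shifts genes unequally, beside 0.002 with TMM. Rgs5 lay past 2-fold under every scaling run, with log2 ratios up to 1.40. Shares of expected counts, which are not per length, were 73.1% for Pdgfb, 23.9% for Pdgfa and 0.706% for Pdgfc.

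No paired analysis was possible because the 2 libraries belong to 1 group. Each level rests on 2 libraries, the number of animals is unknown, and Pdgfc rests on the fewest counts of the 9 genes. With either library left out, each level and share is that of the other library, as given above, and 8 of the 9 genes reached 1 TPM without replicate 1 and 9 without replicate 2.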

Other observations

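RefSeq promoter windows on GRCm38.p6 were at hand for 6 of the 9 genes, as 7 windows of the 250 bases before a start. The 2 Pdgfa windows had GC contents of 66.4% and 72.4%, with 19 and 28 CpG dinucleotides, and the Cspg4 window had 60.4% and 12. Windows of Pdgfra (54.4%, 4 CpG), Rgs5 (53.6%, 4 CpG), Pdgfd (53.6%, 3 CpG) and Pdgfc (50.8%, 3 CpG) lay nearer to the median of all 32851 windows, which was 52.4% with 6 CpG. The letters GGGCGG, on either strand, were found in both Pdgfa windows and in that of Cspg4, beside 32.7% of all windows. The letters TATAAA, on either strand, were found in the Pdgfd window, beside 12.4% of all windows. These matches are descriptions of sequence and not sites of binding.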
